A study of Mus musculus with 12 samples.

Results

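Transcripts of 6 genes that act on heterochromatin and on the DNA methylation kept there were followed in mouse male germ cells from mid-gestation to shortly after birth. The genes were Hells, Cdca7, Zbtb24, Atrx, Daxx and Smchd1, taken by name. Each matched 1 of the 55487 rows of the deposited RNA sequencing table, and all 6 passed the filter on low values, which 22384 genes passed. The table held 12 libraries, 3 for each of the stages E13.5, E16.5, P0 (the day of birth) and P3, from cells of the testis that the labels call gonocytes, the germ cells present before spermatogonia form. The cells came from Mvh-Venus transgenic animals, in which the promoter of a germ cell gene drives a fluorescent protein. Titles and source names called all samples WT, whereas the genotype tag read Morc1 (+/-) at E13.5 and P0 and Morc1 (-/-) at E16.5 and P3. Strain, number of animals per library and pooling were not given in the sources used here, and whether libraries of a stage came from separate animals was not stated. The p-values below therefore measure the spread between these libraries, which may be technical.

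The gene named by that tag did not follow it. Morc1, a germ cell gene of transposon silencing, had 1697 ± 115 normalized counts at E13.5 and 7496 ± 214 at P0, against 31378 ± 2641 at E16.5 and 10881 ± 276 at P3 (SD, n = 3 each). Under the scaling of the table both stages tagged -/- were thus above both stages tagged +/-, and stages are named here by age alone. What a mutant allele would lack was not given in the sources used here, so the counts check the tag only in part. Every comparison of consecutive stages crosses the tag, and stage and tag cannot be told apart there. P0 against E13.5 and P3 against E16.5 each stay within 1 tag.

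Heterochromatin is the compact, mostly silent chromatin of centromeres, telomeres and repeats. Hells (also called Lsh) is an SNF2-family ATPase that moves nucleosomes and is needed for normal DNA methylation of repeats, Cdca7 is the zinc finger protein that recruits it to chromatin and stimulates it, and Zbtb24 is a transcription factor known to activate Cdca7. Together with the DNA methyltransferase gene Dnmt3b, these genes are mutated in ICF syndrome, a disease of immunodeficiency, unstable centromeres and facial anomalies. Atrx, another SNF2-type ATPase, and Daxx, a histone chaperone, work as a complex that places the histone variant H3.3 at repeats and telomeres, and Smchd1, an unusual member of the SMC family, silences genes of the inactive X chromosome and of imprinted clusters. Male germ cells lose most DNA methylation early in fetal life, stop dividing, regain methylation before birth and divide again after it.

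The promoters of Hells, Cdca7 and Atrx are shown because these genes had different courses over the stages: Hells and Cdca7 were high again at P3, whereas Atrx was not. The windows run from 250 bases before to 50 bases after the RefSeq start on GRCm38.p6, at chr19:38930740-38931039 (+ strand) for Hells, chr2:72475969-72476268 (+ strand) for Cdca7 and chrX:105929323-105929622 (- strand) for Atrx. Capitals mark matches to words that were searched on both strands, namely the E2F words TTTCCCGC, TTTCGCGC, TTTGCCGC and TTTGGCGC and the ZBTB24 word CAGGACCT. E2F factors are regulators of replication genes.
Hells: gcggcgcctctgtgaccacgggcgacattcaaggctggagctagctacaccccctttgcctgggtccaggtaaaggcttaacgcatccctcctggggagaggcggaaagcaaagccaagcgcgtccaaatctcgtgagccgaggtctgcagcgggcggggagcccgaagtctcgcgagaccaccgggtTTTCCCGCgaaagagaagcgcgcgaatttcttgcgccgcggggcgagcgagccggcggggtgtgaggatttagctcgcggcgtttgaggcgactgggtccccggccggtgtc
Cdca7: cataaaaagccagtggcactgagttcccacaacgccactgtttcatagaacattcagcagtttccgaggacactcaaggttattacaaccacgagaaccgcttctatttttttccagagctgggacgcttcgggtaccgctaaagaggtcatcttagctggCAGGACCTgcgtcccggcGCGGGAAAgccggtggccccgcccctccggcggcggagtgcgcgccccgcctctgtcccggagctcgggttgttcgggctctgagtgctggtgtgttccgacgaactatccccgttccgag
Atrx: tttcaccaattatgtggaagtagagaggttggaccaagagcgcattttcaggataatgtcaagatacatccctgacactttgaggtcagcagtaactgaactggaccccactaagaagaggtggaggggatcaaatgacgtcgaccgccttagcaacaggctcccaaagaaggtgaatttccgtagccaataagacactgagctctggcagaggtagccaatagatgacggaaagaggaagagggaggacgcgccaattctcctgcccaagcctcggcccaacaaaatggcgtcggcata
The Hells window held TTTCCCGC at position -62 from its RefSeq start, at bases 38930928 to 38930935. In the GENCODE annotation Hells starts earlier, at 38930915, so by that annotation the match lies inside the gene. The Cdca7 window held the same word on the other strand at position -71, printed as GCGGGAAA, and CAGGACCT at position -89, with no overlap between the matches. Both Cdca7 matches also lie before its GENCODE start, at 72476159, but closer to it. No searched word was in the windows of Atrx, Zbtb24, Daxx (3 windows) or Smchd1, which says only that these letters are not there. Of these genes, Smchd1 rose 2.63-fold, Daxx 2.31-fold and Zbtb24 1.53-fold from P0 to P3 under the scaling of the table. A rise after birth was thus not limited to the genes with a match. Of all 32851 windows of the RefSeq table, 2.265% held an E2F word, 1.988% held CAGGACCT, and 9 windows (0.0274%) held both. Counted by gene, 3.817% of the 14646 tested genes with a window held an E2F word. In the lists of genes described further on it was 6 of 15 for replication, 3 of 12 for SMC genes and partners, 2 of 10 for DNA methylation, 1 of 16 for H3.3 and 0 of 23 for other SNF2-family genes. CpG dinucleotides numbered 34 in the Hells window, 26 in that of Cdca7, 40 in that of Smchd1, 32 or 33 in those of Daxx, 18 in that of Zbtb24 and 11 in that of Atrx, against a median of 7 over all windows. Each E2F word holds a CpG, and the shares over all windows and genes were not matched for CpG. They are therefore not a rate for windows as rich in CpG as that of Hells. A match describes the sequence and does not show that a factor binds.

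Hells had the widest swing of the 6 genes between consecutive fetal stages. Hells (ENSMUSG00000025001) spans bases 38930915 to 38971051 of chromosome 19 on the + strand of GRCm38. It had 47822, 44844 and 41078 normalized counts at E13.5 in libraries 1, 3 and 4, the numbers that the table's columns carry. At E16.5 the same order of libraries gave 5075, 5720 and 5053, at P0 6024, 5806 and 5134, and at P3 36992, 36719 and 35165. A normalized count is the number of reads on a gene divided by the size factor of the library. All 6 libraries of E16.5 and P0 were far below all 6 of E13.5 and P3, and the libraries of E16.5 and P0 overlapped. Hells fell 8.44-fold from E13.5 to E16.5 (log2 fold change -3.08, SE 0.078, Benjamini-Hochberg adjusted p = 4.37e-15 in limma). It rose 6.43-fold from P0 to P3 (2.68, SE 0.078, adjusted p = 6.06e-14). Between E16.5 and P0 the difference did not pass the threshold of 0.05 (0.10, adjusted p = 0.295), although it passed as a rise with TMM factors (0.21), median-of-ratios factors (0.36) and equal library totals (0.76). At P3 Hells was 1.23-fold below E13.5 (-0.29, adjusted p = 0.00303), a difference that became 0.034, with no call, when library totals were set equal.

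Cdca7 fell at both steps to birth and rose most of the 6 genes after it. Cdca7 (ENSMUSG00000055612, chromosome 2, 72476159 to 72486893, + strand) had 13316, 12406 and 12654 normalized counts at E13.5 and 5836, 5797 and 5122 at E16.5. P0 libraries had 2813, 2486 and 2406, and P3 libraries 26890, 26530 and 27376. The 4 stages did not overlap in any library, with P0 lowest and P3 highest. Cdca7 fell 2.29-fold from E13.5 to E16.5 (log2 fold change -1.20, SE 0.073, adjusted p = 1.56e-10) and a further 2.18-fold to P0 (-1.12, adjusted p = 1.15e-09). From P0 to P3 it rose 10.5-fold (3.39, adjusted p = 5.74e-15), to 2.11-fold its level at E13.5 (1.07, adjusted p = 1.10e-09). For Cdca7 all 6 comparisons of stages kept their direction and call under 5 scalings of the libraries.

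Zbtb24 moved little by comparison. Zbtb24 (ENSMUSG00000019826, chromosome 10, 41450383 to 41465574, + strand) had 1911, 1719 and 1851 normalized counts at E13.5, 1614, 1758 and 1599 at E16.5, 1334, 1468 and 1280 at P0, and 2120, 2109 and 2008 at P3. Libraries of E13.5 and E16.5 overlapped, those of P0 lay below all others and those of P3 above all others. The fall from E13.5 to E16.5 was not called (log2 fold change -0.14, SE 0.079, adjusted p = 0.113). From E16.5 to P0 Zbtb24 fell 1.22-fold (-0.28, adjusted p = 0.00527), and from P0 to P3 it rose 1.53-fold (0.61, adjusted p = 2.53e-06). Equal library totals turned both, to 0.38 and -0.23, so the direction at birth depended on the scaling. Zbtb24 was 1.14-fold higher at P3 than at E13.5 (0.19, adjusted p = 0.0445). That call was lost without E13.5 library 3 or 4 or P3 library 1 or 3 (0.14 to 0.20, adjusted p = 0.0748 to 0.179), and in edgeR (0.19, adjusted p = 0.0625).

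Dnmt3b, the remaining ICF gene, had another course. It had 305, 194 and 317 normalized counts at E13.5, 574, 565 and 455 at E16.5, 470, 381 and 372 at P0, and 1901, 1865 and 2181 at P3. E13.5 was below all other libraries, E16.5 and P0 overlapped, and P3 was above all others. In limma Dnmt3b rose from E13.5 to E16.5 (log2 fold change 0.99, adjusted p = 3.78e-05), where Hells and Cdca7 fell. It rose again from P0 to P3 (2.28, adjusted p = 1.97e-09), as did Hells, Cdca7 and, depending on the scaling, Zbtb24.

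**Figure D1:**
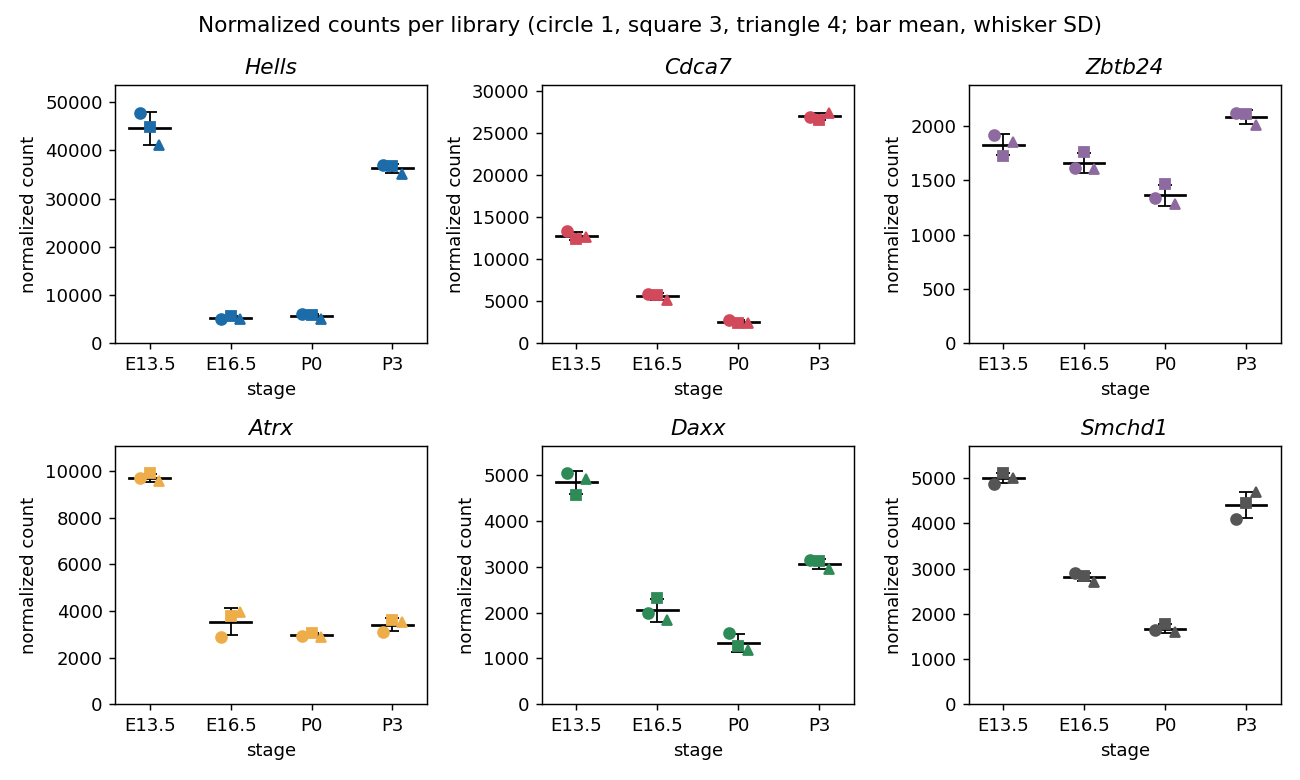
Normalized counts of the 6 genes (y axis, from 0) at the 4 stages (x axis), each point 1 of 3 libraries, with the mean as a bar and the SD as a whisker. Hells dropped from a mean of 44581 at E13.5 to 5283 at E16.5 and stood at 36292 at P3, while Atrx stayed between 2886 and 3956 in all 9 libraries after E13.5.

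Atrx was high at E13.5 alone. Atrx (ENSMUSG00000031229, chromosome X, 105797615 to 105929403, - strand) had 9681, 9895 and 9550 normalized counts at E13.5. In E16.5 libraries it had 2886, 3780 and 3956, in P0 libraries 2919, 3057 and 2890, and in P3 libraries 3091, 3611 and 3512. The 3 later stages lay well below E13.5, and E16.5, whose library 1 was the lowest of all, overlapped both P0 and P3. Atrx fell 2.77-fold from E13.5 to E16.5 (log2 fold change -1.47, SE 0.099, adjusted p = 5.22e-10) and at P3 was still 2.86-fold below E13.5 (-1.51, adjusted p = 6.06e-10). Among the later stages only P0 against E16.5 passed the threshold (-0.25, adjusted p = 0.0391), and that call was lost without E16.5 library 3 or 4 or any 1 of the P0 libraries (-0.27 to -0.16, adjusted p = 0.0554 to 0.189). With equal library totals that value turned to 0.42, a call. P3 against P0 gave 0.20 (adjusted p = 0.0735), which was called without E16.5 library 1 (0.20) or P3 library 1 (0.27) and became -0.64 with equal library totals. P3 against E16.5 gave -0.046 (adjusted p = 0.693), and -0.19, a call, without E16.5 library 1.

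Daxx, the partner of Atrx, fell with it and then rose. Daxx (ENSMUSG00000002307, chromosome 17, 33909414 to 33915590, + strand) had 5040, 4565 and 4928 normalized counts at E13.5, 1995, 2322 and 1829 at E16.5, 1552, 1270 and 1191 at P0, and 3142, 3127 and 2943 at P3. No stage overlapped another, in the order E13.5, P3, E16.5 and P0 from high to low. Daxx fell 2.37-fold from E13.5 to E16.5 (log2 fold change -1.25, SE 0.10, adjusted p = 6.37e-09) and 1.53-fold from E16.5 to P0 (-0.62, adjusted p = 5.89e-05). From P0 to P3 it rose 2.31-fold (1.21, adjusted p = 1.25e-08), yet remained 1.58-fold below E13.5 (-0.66, adjusted p = 2.09e-05). The fall from E16.5 to P0 became 0.046, with no call, with equal library totals.

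Smchd1 had the same order of stages as Daxx, with a smaller first fall. Smchd1 (ENSMUSG00000024054, chromosome 17, 71344489 to 71475343, - strand) had 4874, 5102 and 5007 normalized counts at E13.5, 2890, 2831 and 2706 at E16.5, 1634, 1780 and 1605 at P0, and 4105, 4442 and 4682 at P3. No stage overlapped another, and P3 came close to E13.5. Smchd1 fell 1.78-fold from E13.5 to E16.5 (log2 fold change -0.83, SE 0.071, adjusted p = 1.31e-08), fell 1.68-fold to P0 (-0.75, adjusted p = 1.21e-07) and rose 2.63-fold to P3 (1.40, adjusted p = 2.30e-11). With equal library totals the fall to P0 was -0.085 and was not called. P3 against E13.5 gave -0.18 (adjusted p = 0.0321), which lost its call without E13.5 library 3 or 4 or P3 library 1 or 3 (-0.19 to -0.13, adjusted p = 0.0617 to 0.145), with TMM factors (-0.15) and with median-of-ratios factors (-0.14), and turned to 0.15, also not called, with equal library totals.

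Counted over the 6 genes, most fell to E16.5 and most rose after birth, while the step to P0 depended on the scaling. From E13.5 to E16.5, 5 of 6 fell and none rose (Zbtb24 was not called), where 80.1% of all genes tested were called in either direction and 34.6% were lower. From E16.5 to P0, 5 of 6 fell and none rose (Hells was not called), beside 61.0% called in either direction and 33.4% lower. That split became 3 higher and 1 lower with equal library totals and 1 higher and 3 lower with TMM or median-of-ratios factors. Over all genes at that step, equal totals had 12743 of 23221 called higher and 3443 lower. TMM factors had 7154 of 22504 higher and 6732 lower, and median-of-ratios factors 8541 of 22735 higher and 5791 lower. From P0 to P3, 5 of 6 rose and none fell (Atrx was not called), beside 76.5% called and 40.1% higher. The median log2 fold changes of the 6 genes were -1.22, -0.45 and 1.30 in these steps, against 0.31, -0.01 and 0.05 over all genes tested. Calls were common among all genes, so the count called says little by itself.

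Within 1 genotype tag, most of the 6 genes were also low at P0 and high at P3. At P0 all 6 genes were lower than at E13.5 (86.1% of all genes called in either direction, 40.5% lower), with a median of -1.79 against 0.20 over all genes. In that comparison Hells fell 7.89-fold (log2 fold change -2.98, adjusted p = 3.50e-15), Cdca7 4.99-fold, Daxx 3.64-fold, Atrx 3.28-fold, Smchd1 2.99-fold and Zbtb24 1.34-fold (-0.43, adjusted p = 9.45e-05). Zbtb24 turned to 0.054 with median-of-ratios factors and to 0.74 with equal library totals. At P3, 5 of 6 were higher than at E16.5 and none lower (69.5% of all genes called, 34.2% higher), among them Hells 6.88-fold and Cdca7 4.83-fold. P3 against E13.5, which crosses the tag, had 2 genes higher (Cdca7 and Zbtb24) and 4 lower (Hells, Atrx, Daxx and Smchd1), where 70.4% of all genes were called. These comparisons share libraries with those of consecutive stages and are no separate evidence.

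**Figure D2:**
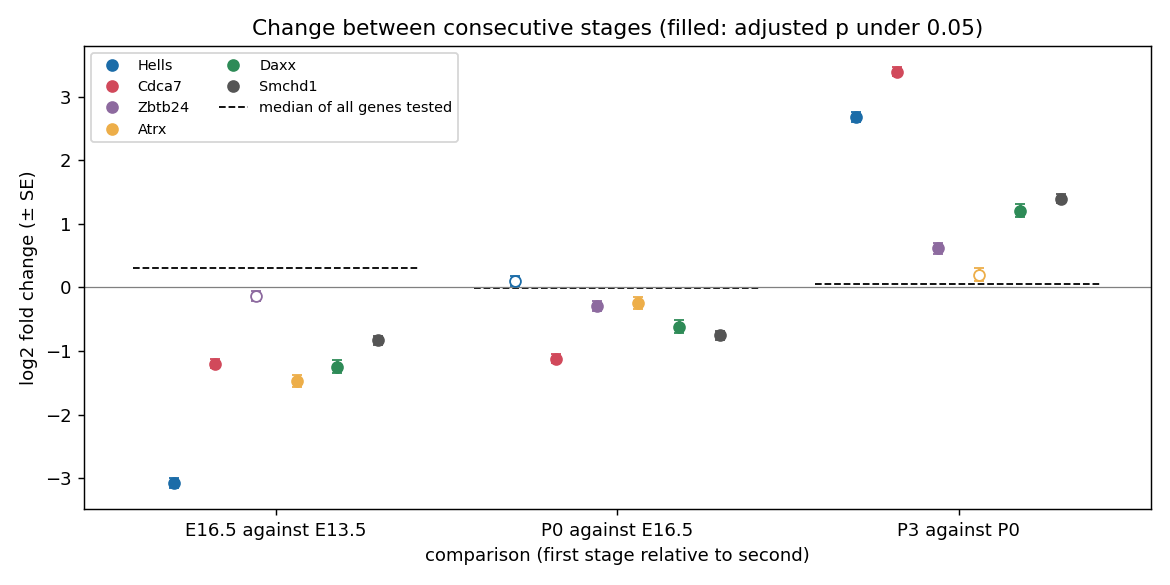
Log2 fold change with its SE (y axis) of the 6 genes in the 3 comparisons of consecutive stages (x axis), filled where the adjusted p was under 0.05, with the median of all genes tested as a dashed line. Hells fell most of the 6 from E13.5 to E16.5 (-3.08, with Cdca7 at -1.20). Cdca7 fell most from E16.5 to P0 (-1.12, with Hells at 0.10), and both led the rise to P3.

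How far each gene moved depended on how the libraries were scaled, and most of all at P0. Against the size factors of the table, equal library totals moved the median of all genes by 0.53 from E13.5 to E16.5, 0.69 from E16.5 to P0 and -0.91 from P0 to P3 (log2), and median-of-ratios factors moved it by 0.24, 0.27 and -0.47. TMM factors moved it by 0.10, 0.12 and -0.18, and poscounts factors by at most 0.03 in size. The fall to E16.5 held in direction and call under all 5 scalings for Hells (-3.08 to -2.57), Cdca7 (-1.20 to -0.69), Atrx (-1.47 to -0.96), Daxx (-1.25 to -0.74) and Smchd1 (-0.83 to -0.32). For the rise from P0 to P3 the same was true of Hells (1.84 to 2.71), Cdca7 (2.55 to 3.42), Daxx (0.37 to 1.24) and Smchd1 (0.56 to 1.43). From E16.5 to P0 Cdca7 alone was called lower under all 5 (-1.15 to -0.46). The splits of called genes moved as well. With equal library totals 1 of the 6 rose and 5 fell to E16.5, and 1 rose and 5 fell from E13.5 to P0, the riser being Zbtb24. Of all 23221 genes tested with that scaling, 12911 rose and 5506 fell to E16.5, and 15372 rose and 4550 fell from E13.5 to P0. From P0 to P3 it was 4 higher and 2 lower with equal totals and 4 higher and 1 lower with median-of-ratios factors. All genes tested had 4577 higher and 13565 lower there with equal totals, and 6684 and 10703 of 22735 with median-of-ratios factors. From E16.5 to P3 median-of-ratios factors also gave 4 higher and 1 lower of the 6, beside 6634 and 9194 of all genes. From E13.5 to P3 equal totals gave 2 higher and 2 lower, beside 10871 and 4898 of all genes.

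**Figure D3:**
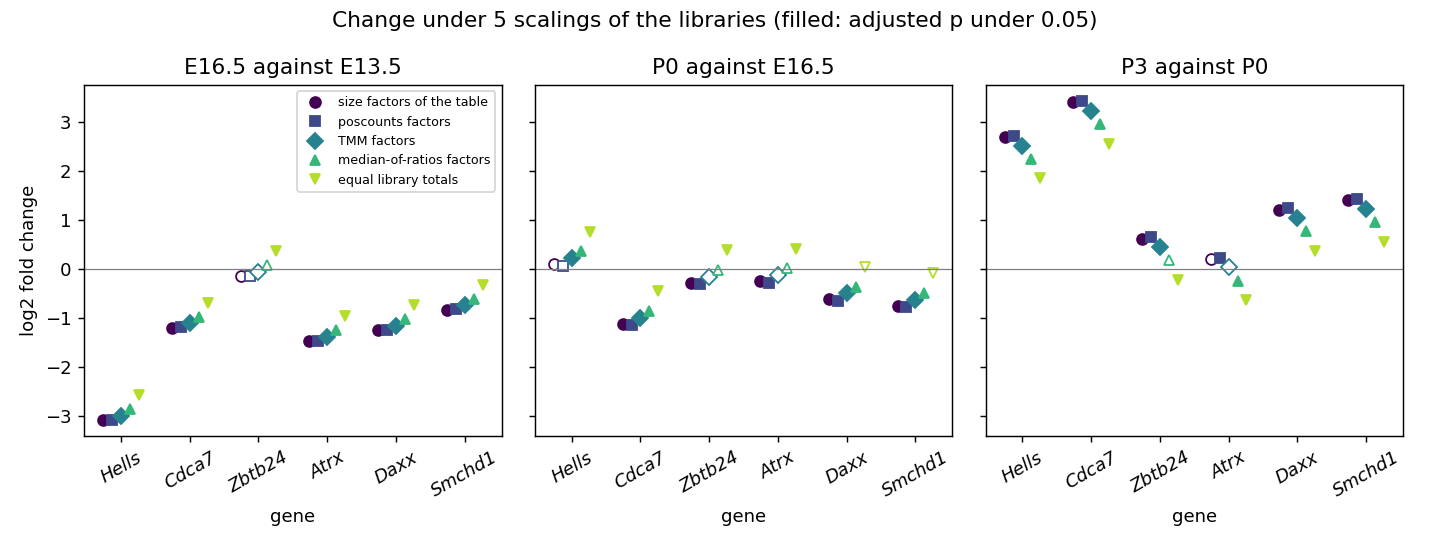
Log2 fold change (y axis) of each gene (x axis) in the 3 comparisons of consecutive stages, with 1 marker for each of 5 scalings of the libraries, filled where the adjusted p was under 0.05. All genes shift together, and the 0 line is crossed by Zbtb24 in each panel, by Atrx at both later steps and by Daxx from E16.5 to P0.

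Ratios of 2 genes within a library do not depend on its size factor, and 3 were tested over the stages. The read ratio of Hells to Cdca7, the remodeler and its activator, was 3.59, 3.61 and 3.25 at E13.5, 0.869, 0.987 and 0.987 at E16.5, 2.14, 2.34 and 2.13 at P0, and 1.38, 1.38 and 1.28 at P3. No stage overlapped another: Hells reads fell from over 3 for each Cdca7 read at E13.5 to about 1 at E16.5, were higher at P0 and were lower again at P3. The ratio differed between stages by an exact permutation test of the F statistic over all 369600 assignments of the 12 libraries (p = 6.494e-05, the smallest that the test can give; adjusted over 3 ratios, 9.74e-05).

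The ratio of Cdca7 to Zbtb24, a gene and its known activator, was 6.97, 7.22 and 6.84 at E13.5, 3.617, 3.297 and 3.203 at E16.5, 2.11, 1.69 and 1.88 at P0, and 12.7, 12.6 and 13.6 at P3. Again no stage overlapped another, with P0 lowest and P3 highest (exact permutation adjusted p = 9.74e-05). The ratio of Atrx to Daxx, the 2 subunits of the chaperone complex, was 1.92, 2.17 and 1.94 at E13.5, 1.45, 1.63 and 2.16 at E16.5, 1.88, 2.41 and 2.43 at P0, and 0.984, 1.16 and 1.19 at P3. All libraries of P3 were below all others, and the first 3 stages overlapped (exact permutation adjusted p = 0.00325). The ratios are of reads and not per length, so only their change between stages can be read.

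**Figure D4:**
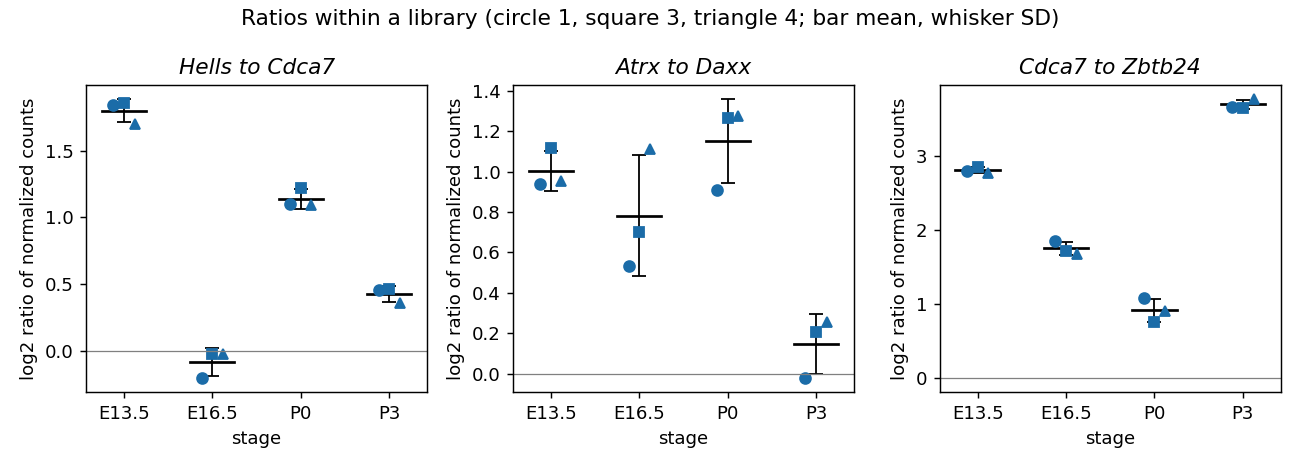
Log2 ratio of normalized counts within a library (y axis) for 3 pairs of genes at the 4 stages (x axis), each point 1 library, with the mean as a bar and the SD as a whisker. The ratio of Hells to Cdca7 is lowest at E16.5, that of Cdca7 to Zbtb24 falls to P0 and is highest at P3, and that of Atrx to Daxx is lowest at P3.

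Levels can be compared between genes only per length, for which normalized counts were divided by the exon length of the gene in GENCODE. Per kilobase of exon, Hells was the highest of the 6 genes at E13.5 (6188 ± 469, against 3995 ± 147 for Cdca7; SD, n = 3). At P3 Cdca7 was the highest (8411 ± 133, against 5037 ± 137 for Hells), above 98.98% of the genes tested. At E16.5 Cdca7 was above Hells (1744 ± 125 and 733 ± 52.6), and at P0 they lay within their SDs (802 ± 67.3 and 785 ± 64.4). Daxx followed, from 1537 ± 78.9 at E13.5 to 425 ± 60.3 at P0. Zbtb24 ran from 266 ± 18.9 at P0 to 406 ± 12.1 at P3, Atrx from 136 ± 4.10 at P0 to 446 ± 8.01 at E13.5, and Smchd1 from 83.7 ± 4.68 at P0 to 250 ± 5.75 at E13.5. Smchd1 was the lowest of the 6 at each stage but P3, where Atrx was lower (156 ± 12.7, against 221 ± 14.5). The annotated exon lengths of Atrx (21757 bases) and Smchd1 (19982 bases) are far longer than those of Cdca7 (3202) and Daxx (3151), and exons that these cells do not use would lower such a level.

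The genes varied together to different degrees. Over the 12 libraries, Pearson's r of log2(normalized count + 1) was 0.954 for Cdca7 and Zbtb24, 0.948 for Daxx and Smchd1, 0.908 for Cdca7 and Smchd1, 0.895 for Hells and Daxx, 0.888 for Hells and Smchd1, 0.884 for Zbtb24 and Smchd1, 0.870 for Hells and Cdca7, 0.820 for Atrx and Daxx, and lowest for Atrx with Cdca7 (0.348) and with Zbtb24 (0.329), the other 5 pairs lying from 0.653 to 0.794. These are descriptions over 12 libraries of 4 stages that share library, size factor and depth. All r values were taken under the size factors of the table, and none is given for another scaling. With equal library totals Cdca7 and Zbtb24 moved in opposite directions at each step between consecutive stages. Their log2 changes were -0.69 and 0.37 to E16.5, -0.46 and 0.38 to P0, and 2.55 and -0.23 to P3. Both were higher at P3 than at E13.5 (1.40 and 0.52) and E16.5 (2.09 and 0.15, the last not called). The r of this pair, and its rank, may thus depend on the scaling. Of 12202 genes whose mean was 100 or more and whose name was not that of a predicted gene or clone, those most like Hells were Cdc42se2 (r = 0.9988), Stx12 (0.9985) and Slbp (0.9981), the last of which binds the stem-loop of replication-dependent histone messages. Slbp had means of 54953 ± 724, 7794 ± 252, 8994 ± 546 and 42618 ± 2653 normalized counts from E13.5 to P3. Most like Cdca7 were Rhbdd2 (0.9964), Bid (0.9955) and Snx9 (0.9954), and most like Zbtb24 were Pdia5 (0.9823), Ankfy1 (0.9779) and Crot (0.9762). Lrrfip1 (0.9956), Zfp229 (0.9906) and Sox2 (0.9903), a transcription factor of pluripotent cells, were most like Atrx. Sox2 had 4204 ± 152 normalized counts at E13.5 and 324 ± 52.9, 198 ± 44.6 and 276 ± 21.4 at the later stages, a deeper drop than that of Atrx. For Daxx the nearest were Stk38 (0.9951), Cep72 (0.9948) and Nsl1 (0.9948, a kinetochore subunit), and for Smchd1 Alkbh4 (0.9969), Plod1 (0.9948) and L3mbtl2 (0.9946).

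Partners of Hells, Cdca7 and Zbtb24 in DNA methylation split at the first step. Of 12 listed genes, 6 rose and 5 fell from E13.5 to E16.5, none rose and 6 fell from E16.5 to P0, and 8 rose and 3 fell from P0 to P3, with list medians of 0.41, -0.45 and 1.03 (log2). Dnmt3l, the cofactor of the de novo methyltransferases, rose from 17.8 ± 5.31 to 20342 ± 1795 normalized counts by E16.5 (a log2 change of 10.12 at an adjusted p of 1.91e-17) and fell afterwards. Uhrf1, which brings maintenance methylation to newly copied DNA, fell by 1.97 to E16.5 (adjusted p = 6.37e-12) and rose by 4.53 from P0 to P3 (adjusted p = 5.14e-15). Dnmt3a, the other de novo methyltransferase, rose by 3.33 to E16.5 (adjusted p = 8.89e-16), then fell by 1.41 to P0, where it was still 1.91 above E13.5 on the log2 scale. At that step the split of calls became 4 higher and 3 lower with equal library totals and 2 higher and 6 lower with median-of-ratios factors, and from P0 to P3 it was 6 higher and 4 lower with equal totals. Of all 23221 genes tested with equal totals, 12911 rose and 5506 fell to E16.5, 12743 rose and 3443 fell to P0, and 4577 rose and 13565 fell to P3. The splits of this list and of those that follow are to be read beside these counts.

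Among 17 genes of H3.3, its deposition and the bodies in which Atrx and Daxx gather, 3 rose and 12 fell to E16.5, 3 rose and 10 fell to P0, and 14 rose and 1 fell to P3 (list medians -0.89, -0.55 and 0.80). Dek, a histone chaperone, fell by 3.05 on the log2 scale to E16.5 (adjusted p = 2.20e-14) and rose by 2.14 to P3. Pml, which builds nuclear bodies that hold Daxx, fell by 2.28 to E16.5. Ubn1, a subunit of the HIRA complex that places H3.3 elsewhere in the genome, rose by 1.16 at that step, while Hira of the same complex fell by 2.03. The H3.3 genes H3f3a fell by 1.45 and H3f3b fell by 1.27 from E16.5 to P0, from means of 25950 and 136914 normalized counts. With equal library totals the split was 5 higher and 10 lower at E16.5, 8 and 5 at P0, and 6 and 7 at P3. It was 5 higher and 9 lower at P0 and 9 higher and 3 lower at P3 with median-of-ratios factors, and 13 higher and 3 lower at P3 with TMM factors.

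The list set beside Smchd1, of 14 SMC-family genes and partners, had 2 higher and 10 lower at E16.5, 2 higher and 11 lower at P0, and 13 higher and 1 lower at P3 (list medians -0.63, -0.62 and 1.09). Smc2, a condensin subunit, fell by 2.65 to E16.5 (adjusted p = 7.52e-15), and Cbx3, of the heterochromatin protein HP1 family, fell by 2.71. Lrif1, the binding partner of Smchd1, rose by 0.36 at that step, while Smchd1 fell. Smc1a fell by 1.61 and Nsmce1 fell by 1.54 to P0, and Smc1b, the meiotic cohesin subunit, rose by 2.21 to P3. Xist, the RNA that coats the inactive X chromosome, was at most 41.3 normalized counts in any library. With equal library totals this list had 4 higher and 7 lower at E16.5, 5 and 5 at P0, and 8 and 3 at P3, and with median-of-ratios factors 4 higher and 9 lower at E16.5.

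Of 30 other SNF2-family ATPases, relatives of Hells and Atrx, 6 rose and 19 fell to E16.5, 4 rose and 20 fell to P0, and 18 rose and 9 fell to P3 (list medians -0.51, -0.51 and 0.55). Smarcad1 fell by 3.32 to E16.5 (adjusted p = 8.15e-15), a size near that of Hells, whereas Chd3 rose by 3.44. Rad54l, a factor of recombination repair, and Ercc6l rose by 2.69 and 2.58 to P3, and Chd9 fell by 2.15 and Smarca2 fell by 1.60. With equal library totals the split turned, to 14 higher and 10 lower at E16.5, 15 and 8 at P0, and 7 and 15 at P3. All 23221 genes tested with that scaling had 12911 higher and 5506 lower, 12743 and 3443, and 4577 and 13565 at these steps. Median-of-ratios factors gave 6 and 16 at P0 and 14 and 11 at P3.

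Genes of DNA replication and proliferation had the direction of Hells at the first and the last step. All 19 tested fell from E13.5 to E16.5 and all 19 rose from P0 to P3, under each of 5 scalings, with list medians of -1.82 and 2.76. Rrm2 was listed at 0 in all libraries and was not tested. Ccne1, a cyclin of entry into replication, fell by 4.19 to E16.5 (adjusted p = 6.52e-16), and Mki67, a marker of cycling cells, fell by 3.41. Cdc6 and Mcm5, which load the replicative helicase or form part of it, rose by 4.09 and 3.52 to P3. From E16.5 to P0, 2 rose and 14 fell (median -0.68), or 7 and 9 with equal library totals. Hells, Cdca7, Daxx and Smchd1 also fell to E16.5 and rose from P0 to P3 under each of 5 scalings, Atrx fell to E16.5 and was not called from P0 to P3, and what part replication has in the changes of the 6 genes was not tested. The 52 changes of partner genes that the naming rule picked kept direction and call under all 5 scalings. That rule takes the most extreme called changes of each list, which a scaling is least able to turn. Their stability therefore says little of the other listed genes.

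**Figure D5:**
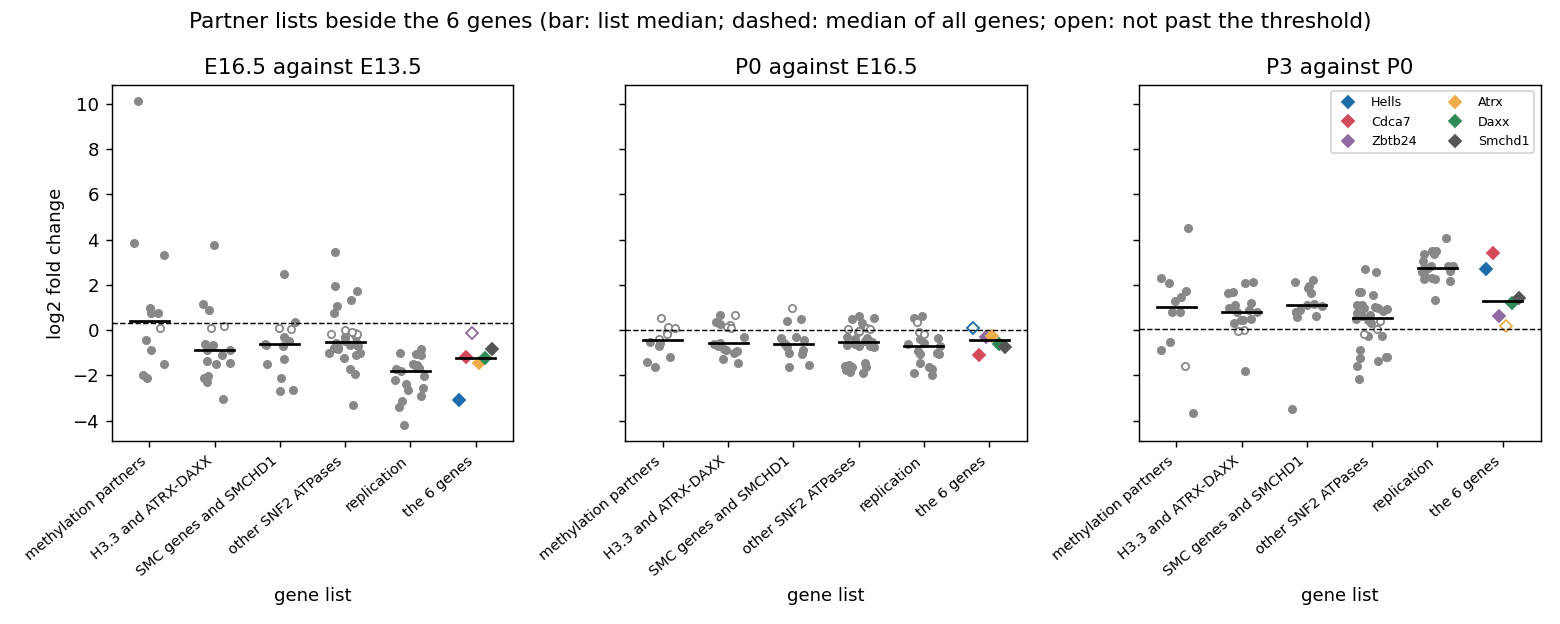
Log2 fold change (y axis) of each tested gene of 5 partner lists and of the 6 genes (x axis) in the 3 comparisons of consecutive stages, with the list median as a bar, the median of all genes as a dashed line and open symbols where the adjusted p was not under 0.05. Hells lies among the replication genes from E13.5 to E16.5 and from P0 to P3, and Zbtb24 and Atrx lie nearest to the median of all genes from P0 to P3.

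Recovered reads numbered 40946616 to 51533747 per library, and the 6 genes had 1580 to 45304 reads in any library. Summed germ cell markers, 11 genes with none at 0, stood at 6033 to 8410 CPM (reads scaled to equal library totals) in all libraries. Under the size factors of the table, on which the changes of the 6 genes are given, these sums moved with stage and were lowest at P0. They were 347530 to 363500 at E13.5, 291190 to 321300 at E16.5, 155360 to 166730 at P0 and 253360 to 268630 at P3. Markers of other cells of the testis were far lower but moved with stage, and were mostly highest at P0, where Cdca7 was lowest in CPM as well as under the size factors of the table. In CPM Zbtb24 was highest there (53.6, 62.0 and 55.6), and Daxx and Smchd1 overlapped E16.5. The 5 Sertoli markers summed to 103 to 170 CPM at P0 and to at most 56.1 elsewhere, the 4 peritubular markers to 93.5 to 99.0 and at most 29.3, and the 5 mast cell markers to 62.9 to 121 and at most 7.13, with all 5 at 0 at E13.5. The 6 Leydig markers summed to 64.8 to 293 at P0 and 20.8 to 227 at E16.5, so libraries of 1 stage differed widely. The 4 blood markers reached 98.6 at P0 and 66.5 at E16.5, and the 6 macrophage or endothelial markers were highest at E13.5 (82.1 to 94.7). Insl3 and Adgre1 were at 0 in all P3 libraries. Adgre1, of the macrophage or endothelial list, had hardly any reads in the E13.5 libraries either. The high sum of that list at E13.5 therefore came from its other markers. The part of other cells in the changes of the 6 genes was not tested, and in bulk RNA fewer cells of a type and less RNA per cell cannot be told apart. None of the 6 genes shares annotated exon bases with another gene, and of the 50-base words of their transcripts at most 1.14% (Zbtb24) recur in another gene.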

How the data were processed

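RNA from male germ cells was made into libraries with SMART-seq v4 Ultra Low input and TruSeq mRNA kits, per the labels' protocols. The submitters' processing notes name bcl2fastq 2.20, cutadapt 1.18, HISAT2 2.1.0, featureCounts 1.5.2 and DESeq2 1.26.0, and the builds mm10 and GRCm38; strand setting, multiple matches and annotation release are not given in the sources used here. The authors deposited a normalized signal, read counts per gene divided by 1 RLE size factor per library. All values (100%) were whole multiples of 1 read within a tolerance of 0.001, so reads were recovered.

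Columns were assigned to stages by name. Symbols matched 55141 of 55487 identifiers. The test was that of limma 3.58.1 (R 4.3.3, lmFit, eBayes with trend) on log2(normalized count + 1) over all 12 libraries, after a filter (10 or more normalized counts in 3 or more libraries), with Benjamini-Hochberg adjusted p under 0.05 over all 22384 genes. Log2 ratios were tested by exact permutation. Alternatives were TMM, median-of-ratios, poscounts and equal-total scaling, a pseudocount of 0.1 or 10, a filter that was absent or asked for a mean of 100, a minimum log2 change of 1 in size, a fit of 2 stages alone, each library left out, a replicate block on the column number (added later), and edgeR 4.0.16 and DESeq2 1.42.0 on recovered reads. The fits and the permutation test were tried on simulated data. In the simulation for the fits few genes changed and the true size factors were given. It does not test the choice of scaling. Positions and exon lengths are from GENCODE M21 on GRCm38, promoters from RefSeq. Named beside the 6 genes are Dnmt3b, Morc1, the 3 genes most correlated with each, and, per list and step between consecutive stages, the 2 highest and the 2 lowest called changes, of which the text gives a choice; Lrif1, Hira, Xist and Rrm2 are remarked on after their values were seen. The 6 genes and the lists were chosen with earlier results of these data known.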

Additional observations from a re-analysis of the deposited data

How the results depend on the processing

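Columns of each stage carry the numbers 1, 3 and 4, and a fit with that number as a replicate block was chosen after seeing the data. Deviations from the stage means, over all genes tested, correlated at -0.0356 to 0.0423 in the 18 pairs of libraries with the same number and at -0.0716 to 0.0534 in the 36 with different numbers. Of the 12 libraries, 2 correlated best with their own number, so the number was not taken to pair them. With the block, Atrx became a call from P0 to P3 (0.20, limma adjusted p = 0.0457), Zbtb24 lost its call from E13.5 to P3 (0.19, adjusted p = 0.0506), and the 6 genes kept their other calls. Counts of all genes called moved most from E16.5 to P0, from 13658 to 13529. All 3 ratios kept their call, with adjusted exact permutation p at most 0.015 with any library left out.

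Equal library totals turned Zbtb24 to 0.37 from E13.5 to E16.5, 0.38 from E16.5 to P0, -0.23 from P0 to P3 and 0.74 from E13.5 to P0, Atrx to 0.42 from E16.5 to P0 and -0.64 from P0 to P3, and Daxx to 0.046 from E16.5 to P0. From E13.5 to P3 they turned Hells to 0.034 and Smchd1 to 0.15. With them Hells became a call from E16.5 to P0 (0.76), while Smchd1 at that step (-0.085) and Zbtb24 from E16.5 to P3 (0.15) lost theirs. Median-of-ratios factors turned Zbtb24 to 0.081 from E13.5 to E16.5 and to 0.054 from E13.5 to P0, and Atrx to 0.010 from E16.5 to P0 and -0.24 from P0 to P3. With these factors Hells from E16.5 to P0 (0.36) and Atrx from E16.5 to P3 (-0.23) became calls. Zbtb24 lost its calls from E16.5 to P0 (-0.027), P0 to P3 (0.17) and E16.5 to P3 (0.15), and Smchd1 from E13.5 to P3 (-0.14). TMM factors called Hells from E16.5 to P0 (0.21) and not Zbtb24 (-0.17) or Atrx (-0.13) there, nor Smchd1 from E13.5 to P3 (-0.15). Poscounts factors called Atrx from P0 to P3 (0.23), as did a fit of these 2 stages alone (0.20).

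Atrx from E16.5 to P0 lost its call with a pseudocount of 0.1, with no filter and with only these 2 stages (-0.25 in each). From E13.5 to P3 Zbtb24 lost its call with a pseudocount of 10, with no filter and in edgeR (0.19 in each), and Smchd1 with no filter (-0.18). Leaving out each library in turn gave Atrx -0.39 to -0.16 from E16.5 to P0, 0.16 to 0.27 from P0 to P3 and -0.19 to 0.041 from E16.5 to P3, where it turned without E16.5 library 3 (0.0079) or 4 (0.041) or P3 library 1 (0.022). From E13.5 to P3 the range was 0.14 to 0.22 for Zbtb24 and -0.23 to -0.13 for Smchd1. The cause of these changes was not tested.

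Asking for a log2 change of 1 in size left 1 of the 6 genes called from E16.5 to P0, 2 from E16.5 to P3 and 2 from E13.5 to P3. Of all genes tested, 34.0%, 45.3% and 45.4% were called in these comparisons, so these counts say little of the 6 genes by themselves. It removed Smchd1 (-0.83) from E13.5 to E16.5, and Zbtb24 (-0.28), Atrx (-0.25), Daxx (-0.62) and Smchd1 (-0.75) from E16.5 to P0. Zbtb24 was removed from P0 to P3 (0.61) and from E13.5 to P0 (-0.43). From E16.5 to P3 it removed Zbtb24 (0.33), Daxx (0.59) and Smchd1 (0.65), and from E13.5 to P3 Hells (-0.29), Zbtb24 (0.19), Daxx (-0.66) and Smchd1 (-0.18).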
